A study of Mus musculus with 5 samples.

Results

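Ribosomal proteins of the cytosolic ribosome were followed in the transcriptomes of sorted mouse haematopoietic stem and progenitor cells (HSPCs). Members were the genes of the deposited table with a symbol of the form Rpl or Rps and a number, Rplp0 to Rplp2, or Rpsa. Symbols beginning with Rps6k (8 kinases) or Rps19bp (1 gene) and those ending in -ps and a number (1 row, Rpl14-ps1) were left out of the 87 rows that matched the pattern. This gave 77 members of 11352 listed genes. By symbol alone, 45 were counted to the large 60S subunit (Rpl) and 32 to the small 40S subunit (Rps). The rule used no measured value, although it was chosen with earlier results of these data known. The annotation holds 85 protein-coding symbols that follow the same rule, of which 75 were listed. The other 10 (Rpl10l, Rpl11, Rpl23a, Rpl26, Rpl28, Rpl36a, Rpl39l, Rpl3l, Rps27rt and Rps28) were not analysed here. The remaining members, Rps4l and Rpl37rt, are annotated as transcribed processed pseudogenes, and Rpl7l1 carries a ribosomal symbol although its product is known as a ribosome assembly factor.

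The study compared 2 Cux1-low libraries, from mice in which Cux1 was knocked down, with 3 Cux1-low;NrasG12D libraries, from mice that carried the same knockdown and an NrasG12D allele (NrasG12D libraries from here on). The CUX1 protein binds DNA through a homeodomain, and the G12D form of NRAS is a small GTPase held in its active state. Both groups were treated for 4 weeks with doxycycline and with pI:C, which mimics double-stranded viral RNA, and the cells were sorted on the absence of lineage markers and CD135 and the presence of KIT and SCA1, per the labels. The knockdown and both agents are therefore common to all libraries, and no sample with intact Cux1 was analysed here. Whether each library came from its own animal is not in the labels, so a p-value here speaks to the spread among these 5 samples only, which may in part be technical. In bulk RNA from a sorted population, fewer cells of a type and less RNA per cell cannot be told apart.

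A ribosome joins a 40S subunit, which reads the mRNA, to a 60S subunit, which forms the peptide bond, and most ribosomal proteins are present in a single copy per ribosome. Their mRNAs typically begin with a cytosine followed by a run of pyrimidines, the terminal oligopyrimidine tract, through which mTOR signalling and LARP1 control their translation as a group. Blood formation is sensitive to their dose: inherited loss of 1 copy of several of these genes causes Diamond-Blackfan anaemia, and reduced RPS14 contributes to the anaemia of the 5q- syndrome.

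Read numbers were inferred from the steps between the values of each library and are not counts given in the data. By this inference the libraries held 16489709 to 20262496 reads over the listed genes. The value of 1 read was 0.0481 to 0.0608 normalized CPM, the deposited unit. Of the members, 16 rested on fewer than 100 inferred reads in at least 1 library. Cux1 read 306 and 281 normalized CPM in Cux1-low against 311, 279 and 307 in NrasG12D, and Nras read 144 and 115 against 126, 124 and 113, with overlapping groups for both. These levels do not check the labels, since both groups carry the knockdown and the allele changes the sequence rather than the amount. NrasG12D library 3 stood apart from libraries 1 and 2 and towards Cux1-low, so results are given with and without it. It was singled out by the same values that are tested, so leaving it out favours calls. The limma test used below called 128 of all listed genes with library 3 and 4243 without it. Calls without library 3 are therefore a description and no separate support. The sort markers Kit, Ly6a and Flt3 (the gene of CD135, a protein the sort selected against) were all detected. All 3 were lower in every NrasG12D library than in both Cux1-low libraries, as were 27% of all genes.

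The starts of ribosomal protein genes are shown because the tract described above is the sequence feature most members are known to share. RefSeq promoters on GRCm38.p6 were matched by symbol for 57 members, and each window runs from 35 bases before to 20 bases after the annotated start, in the direction of transcription. Capitals mark the longest pyrimidine run that begins with C, holds at least 5 bases and starts within 10 bases of the annotated start. The first 4 windows hold long runs of this kind, and in the next 3 no such run starts within that limit (the pyrimidine run of Rpl4 begins further upstream).
Rpl27a (chr7:109519160-109519214, plus strand): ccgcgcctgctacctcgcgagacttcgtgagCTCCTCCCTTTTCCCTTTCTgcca
Rpl35 (chr2:39005112-39005166, minus strand): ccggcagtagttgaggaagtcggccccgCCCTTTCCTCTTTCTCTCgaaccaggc
Rpl13a (chr7:45128726-45128780, minus strand): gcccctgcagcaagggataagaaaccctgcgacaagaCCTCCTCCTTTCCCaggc
Rpl14 (chr9:120571482-120571536, plus strand): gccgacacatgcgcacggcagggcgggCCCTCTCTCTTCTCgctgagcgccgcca
Rps3a1 (chr3:86142649-86142703, minus strand): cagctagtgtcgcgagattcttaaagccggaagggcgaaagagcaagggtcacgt
Rplp0 (chr5:115559432-115559486, plus strand): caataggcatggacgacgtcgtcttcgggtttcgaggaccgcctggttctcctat
Rpl4 (chr9:64173352-64173406, plus strand): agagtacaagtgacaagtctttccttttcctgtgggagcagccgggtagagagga
A run of this kind was found in 34 of 57 members (59.6%), against 37.4% of other listed genes and 34.4% of all 27025 genes with a RefSeq promoter. Here and below, a gene counted if any of its promoters matched. The ETS-type motif CCGGAAG was searched on both strands over the 250 bases before and 50 after the start. It lay in 40.4% of members, 21.3% of other listed genes and 9.93% of all genes with a promoter. It can be read in the Rps3a1 window above. The YY1-type motif AANATGGC lay in 19.3% of members and 10.6% of other listed genes. The GC-box motif GGGCGGGG (35.1% and 37.7%) and TATAAA (8.77% and 7.98%) were about as frequent in members as in other listed genes. A match describes these letters only, and its absence from a window says nothing of the factor.

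Nearly all members read higher in NrasG12D than in Cux1-low, by a similar and moderate amount. The log2 fold change was positive for 74 of 77 members, against 49.7% of all listed genes, and its median was 0.43 for members and -0.003 for all genes. In 61 members every NrasG12D library lay above both Cux1-low libraries, where 26.5% of all genes did so, and in 1 member, Rps4l, every one lay below, where 27% of all genes did so. Single genes mostly did not pass the test. One member, Rps3a1, was called higher and none lower by limma at a Benjamini-Hochberg adjusted p under 0.05 over all genes, with 0.255% of all genes called higher and 0.872% lower. At an unadjusted p under 0.05, 46 members were higher and 1 lower, against 14.8% and 16.5% of all genes. The authors' deposited table, made with another test, lists 25 members higher and 1 lower at an adjusted p under 0.05, and 6.97% and 9.14% of all genes.

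**Figure D1:**
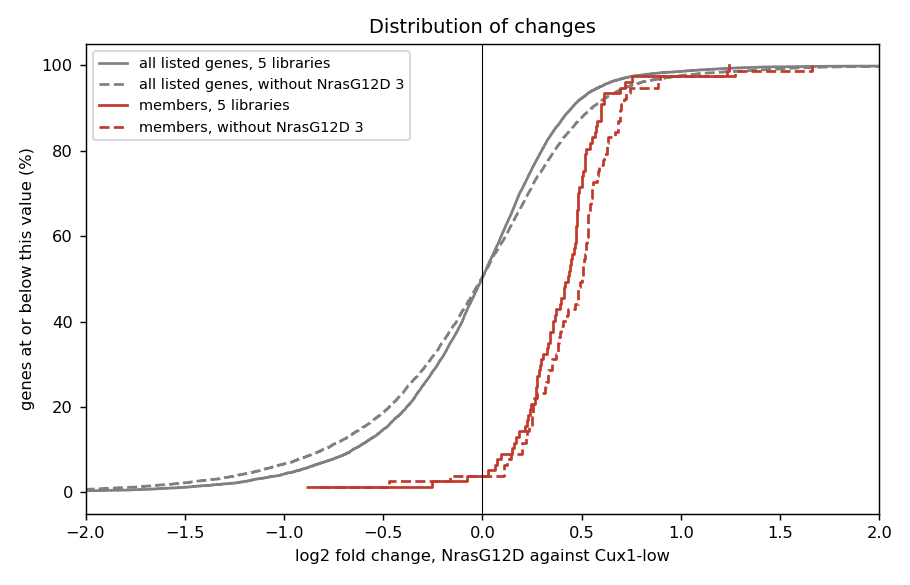
Cumulative share of genes (%) against log2 fold change, NrasG12D against Cux1-low, for the 77 members (red) and all 11352 listed genes (grey), with all 5 libraries (solid) or without NrasG12D library 3 (dashed). The red curves lie to the right of 0 over nearly their whole length, with a median of 0.43 against -0.003 for all genes.

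Library 3 set how many members passed. Without it, the same test called 44 members higher and 2 lower (Rps4l and Rpl3), against 18% and 19.4% of all genes, and the median over members became 0.50. The member sum was 5655 and 5633 normalized CPM in Cux1-low, and 7887, 7901 and 7042 in NrasG12D. As a share of all listed values this was 0.582% and 0.578% against 0.768%, 0.770% and 0.703%. The groups did not overlap, and library 3 was the lowest of its group. On a scale from 0 at the Cux1-low mean to 1 at the mean of NrasG12D libraries 1 and 2, library 3 had a median position of 0.543 over the 68 members that differed at least 1.2-fold. It lay below libraries 1 and 2 in 59 members and above both in 6 (Rpl3, Rpl12, Rpl15, Rpl27a, Rps19 and Rps27), and in 64 it was above both Cux1-low libraries.

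**Figure D2:**
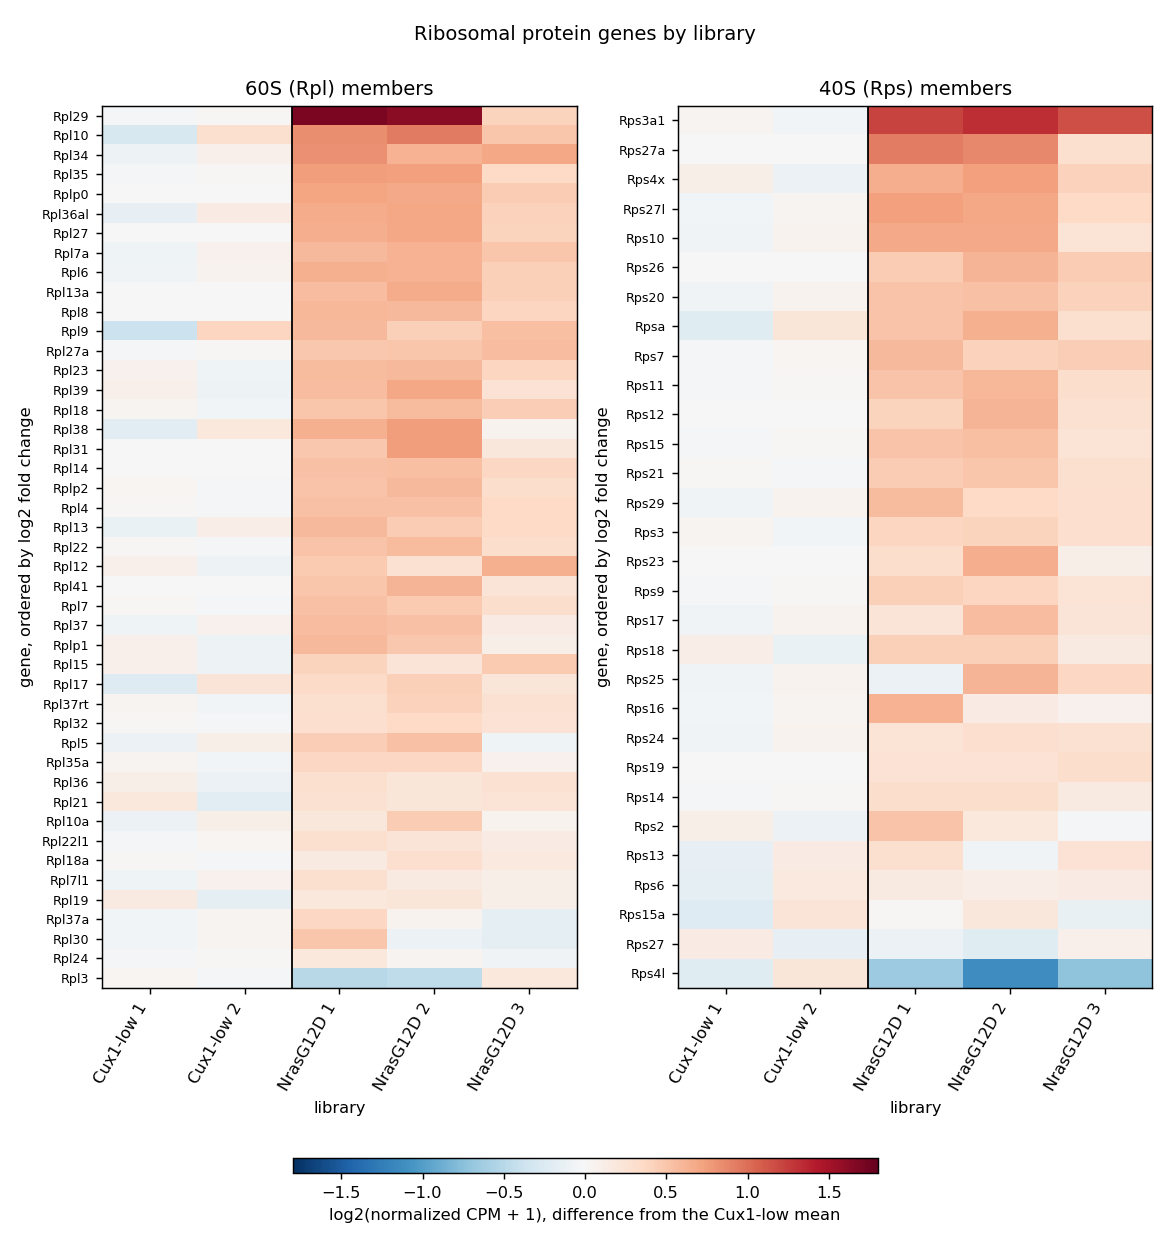
Difference of each member from its Cux1-low mean in log2(normalized CPM + 1), by library, for 45 Rpl genes (left) and 30 Rps genes (right), ordered by log2 fold change. NrasG12D libraries 1 and 2 are red in most rows and library 3 is paler, with Rps4l and Rpl3 as the blue rows.

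Marker lists of other cells and of the cell cycle also differed between the groups, in part in the direction of the members and in part against it. All 13 listed of 17 erythroid markers had a positive log2 fold change (median 0.79), and their summed level was 5258 to 5834 normalized CPM in Cux1-low and 6471 to 12429 in NrasG12D. The globin genes of that list were not analysed here. All 8 proliferation markers were positive (median 0.50, sums 2312 to 2557 against 2930 to 3919). All 8 had groups that did not overlap and were higher in NrasG12D, against 26.5% of all genes. All 10 listed of 13 pre-B cell markers were positive (median 2.30), with sums of 176 to 250 against 142 to 918, the lowest being library 3, and the smallest value of any of them was 0.729, for Ebf1. Of 13 listed stem cell markers 12 were negative (median -1.53), with sums of 1572 to 1583 against 439 to 950. The sums of 9 granulocyte and monocyte markers (7806 to 10952 against 8454 to 19861) overlapped between the groups. Of 8 T cell markers only Lck was listed (26.4 to 38.9), and the others were not analysed here. Of 8 listed megakaryocyte markers 7 were negative (median -0.39), with sums of 771 to 778 against 455 to 844. With all 5 libraries limma called 1 stem cell gene among these lists, as lower (0.872% of all genes were). Without library 3 it called 13 erythroid, 10 pre-B, 8 proliferation and 5 granulocyte and monocyte markers higher, against 18% of all genes. It then called 11 stem cell, 3 megakaryocyte and 1 granulocyte and monocyte markers lower, against 19.4% of all genes. The authors' deposited table, over all 5 libraries, calls 9 erythroid, 6 pre-B, 4 proliferation and 11 stem cell markers. It also calls 1 megakaryocyte and 2 granulocyte and monocyte markers, and 16.1% of all genes in either direction. The part of any of these lists in the ribosomal protein result was not tested.

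Rps3a1 encodes a 40S protein near the mRNA exit, known also to contact initiation factor eIF3. It read 50.4 and 46.8 normalized CPM in Cux1-low and 114, 123 and 110 in NrasG12D. Both Cux1-low libraries lay below 51 and all NrasG12D libraries above 109, library 3 included. The ratio of means was 2.38, or 1.23 in log2 with an SE of 0.11, and limma gave an adjusted p of 0.0145. Its size was 1.18 to 1.28 when any 1 library was left out. The call was lost without Cux1-low library 1 (adjusted p = 0.227), without Cux1-low library 2 (0.307) and without NrasG12D library 1 (0.152), and was kept without NrasG12D library 2 (0.0342) or 3 (0.00121). The gene lies on chromosome 3 (86137940 to 86142702, minus strand, mm10), 16.92 Mb from Nras. The 5 listed genes within 1 Mb had log2 fold changes of -1.01 to 0.44. None was called, where limma called 0.255% of all genes higher and 0.872% lower. Groups were separate and lower for Cd1d1 and Dclk2 (27% of all genes) and separate and higher for Sh3d19 (26.5%). They overlapped for Gatb and Lrba.

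Rpl29, a 60S protein whose loss in mice slows growth, had the highest log2 fold change of all members and the least even one. It read 14.51 and 14.97 in Cux1-low, 50.1 and 47.5 in NrasG12D libraries 1 and 2, and 19.9 in library 3. The first 2 NrasG12D libraries were over 3 times the Cux1-low level, and library 3 stood close to Cux1-low. By limma this was 1.24 in log2 (SE 0.38, adjusted p = 0.0947), and 1.66 (adjusted p = 0.00103) when library 3 was left out. The other members among the 8 highest were Rpl10, Rpl34, Rps27a, Rpl35, Rplp0 and Rps4x, with log2 fold changes of 0.60 to 0.76 and adjusted p of 0.0533 to 0.122. Each of these was called by limma without library 3 (adjusted p 0.0027 to 0.0236), where 44 of 77 members and 18% of all genes were called higher. They were picked for their size in the same values, so these calls are no separate support. Rpl10, which joins the 60S subunit late in assembly, read 5.54 and 8.66 against 13.2, 14.2 and 10.2, and its 0.76 became 0.47 without Cux1-low library 1 and 1.04 without Cux1-low library 2. Rps27a encodes a fusion of ubiquitin with a 40S protein, and read 9.31 and 9.39 against 18.6, 17.9 and 11.7. Its library 3 value again lay nearer to Cux1-low. Rpl34, in contrast, read 6.32 and 7.36 against 12.9, 11.1 and 11.7, with library 3 between the other NrasG12D libraries.

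Members with the lowest log2 fold changes were Rps4l, Rpl3, Rps27, Rps15a, Rpl24 and Rpl30. Rps4l, the processed copy of Rps4x, read 19.3 and 26.6 in Cux1-low against 14.0, 9.87 and 13.4, below both in every NrasG12D library. In log2 the difference was -0.83 (SE 0.22) at a limma adjusted p of 0.0806, and -0.89 (adjusted p = 0.0241) without library 3. It ran from -0.61 without Cux1-low library 2 to -1.06 without Cux1-low library 1. The parent gene Rps4x, a 40S protein of the X chromosome, went the other way, at 28.0 and 24.0 against 41.3, 43.8 and 34.8 (log2 fold change 0.60, SE 0.16, adjusted p = 0.0802). Rpl3, a core 60S protein next to the peptidyl transferase centre, read 85.8 and 82.2 against 59.3, 61.2 and 95.7. NrasG12D libraries 1 and 2 were below both Cux1-low libraries and library 3 was above them. For Rpl3 limma gave -0.25 in log2 (SE 0.21) with an adjusted p of 0.436, and -0.47 (adjusted p = 0.0135) without library 3. For Rps27 (-0.08), Rps15a (0.03), Rpl24 (0.06) and Rpl30 (0.07) the groups overlapped, and the direction turned when 1 library was left out.

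**Figure D3:**
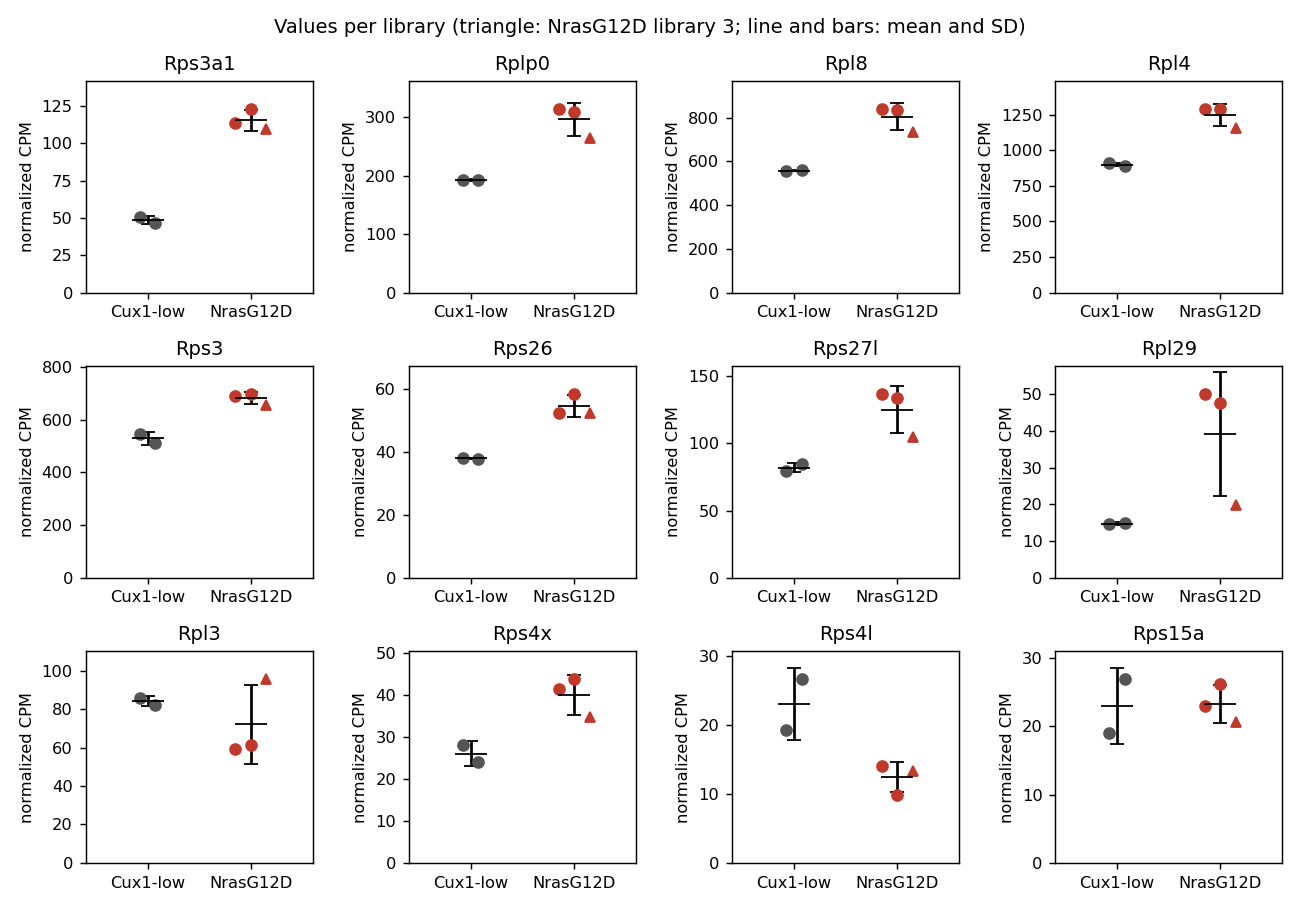
Normalized CPM per library for 12 members, with Cux1-low in grey, NrasG12D in red (triangle for library 3), and lines and bars for mean and SD. Rps3a1 and the abundant Rpl4 and Rpl8 have separate groups, Rpl29 and Rpl3 depend on library 3, and Rps4l is lower in NrasG12D while Rps4x is higher.

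The P stalk is the flexible arm that recruits elongation factors to the 60S subunit. Its members all had a positive sign and separate, higher groups (4 of 4, median 0.47), against 26.5% of all genes for such groups. Rplp0, its base, read 192 and 194 in Cux1-low against 315, 310 and 265. This is 193 ± 1.01 (SD, n = 2) against 297 ± 27.7 (SD, n = 3), or 0.61 in log2 with an SE of 0.11 (limma adjusted p = 0.0533), and 0.69 (adjusted p = 0.00275) without library 3. Rplp1 and Rplp2, the acidic proteins that bind it, read 91.4 and 81.1 against 129, 121 and 92.8, and 31.3 and 29.6 against 43.7, 46.0 and 38.3. For Rplp1 the gap between groups was small, since library 3 exceeded the higher Cux1-low library by little. Rpl12, which anchors the stalk, read 8.24 and 7.08 against 11.03, 9.47 and 12.4, with library 3 the highest. Rpl5, which with Rpl11 (not analysed here) and 5S rRNA forms the particle that restrains MDM2, had overlapping groups at 3.04 and 3.66 against 4.87, 5.25 and 3.10. Its log2 fold change of 0.29 ran from 0.18 without NrasG12D library 2 to 0.48 without library 3.

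The nascent peptide leaves through a tunnel lined by Rpl4, Rpl17 and Rpl39 among others. All 6 listed of 8 tunnel and rim genes had a positive sign (median 0.48). In 4 the groups were separate and higher (26.5% of all genes), and 4 were called higher without library 3 (18% of all genes). Rpl4 was the highest member at 907 and 890 against 1291, 1292 and 1157, that is 898 ± 12.5 (SD, n = 2) against 1247 ± 77.5 (SD, n = 3). All NrasG12D libraries were above both Cux1-low libraries, with 0.47 in log2 (SE 0.11) at a limma adjusted p of 0.0731, and 0.0066 without library 3. Around the mRNA channel and decoding centre of the 40S subunit, 5 of 6 genes were listed and all 5 were positive (median 0.37). Rps3, at the mRNA entry, read 546 and 511 against 691, 698 and 655. Rps26, which contacts mRNA upstream of the start codon, read 38.0 and 37.9 against 52.5, 58.5 and 52.6. Both genes were named for a small p in these values. Their groups were separate, and limma called both without library 3 (adjusted p = 0.0160 and 0.0153). Over all 5 genes the groups were separate and higher in 4 (26.5% of all genes). Without library 3, 3 of the 5 were called higher (18% of all genes). By subunit, 44 of 45 60S members (median 0.47) and 30 of 32 40S members (median 0.38) were positive, and the difference between subunits was not tested.

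Of 20 ribosomal protein genes mutated in Diamond-Blackfan anaemia, 17 were listed. Among these 17, 16 had a positive sign (median 0.41) and 14 had separate and higher groups (26.5% of all genes). None was called by limma with all 5 libraries, 9 had an unadjusted p under 0.05 (31.4% of all genes did), the authors' deposited table calls 4 (16.1% of all genes), and 8 were called higher without library 3 (18% of all genes). Rps19, the gene most often mutated and named here after its values were seen, is not among those 8 (adjusted p = 0.0824). Rps20 had the smallest p of the list, at 91.0 and 100 against 136, 138 and 128 (log2 fold change 0.48, SE 0.10, limma adjusted p = 0.0647, and 0.0091 without library 3). Rpl18 read 34.2 and 31.7 against 46.8, 49.3 and 45.1, again without overlap. Rps14, outside that list but central to the 5q- syndrome, read 245.6 and 254.6 against 313, 312 and 280, with a log2 fold change of 0.27 (SE 0.10); it was named after its values were seen.

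Some ribosomal proteins have extra gene copies, and 5 of 10 such genes were listed. Rps27l, a copy of Rps27 known as a p53 target, read 79.4 and 84.5 against 137, 133 and 105 (log2 fold change 0.59, SE 0.14, limma adjusted p = 0.0727, and 0.0035 without library 3). Rps27 itself read 3.73 and 2.89 against 2.97, 2.68 and 3.58. The copy was separate between groups and its parent was not, although Rps27 has no unique coding window and the difference between both genes was not tested. Rpl36al read 38.1 and 46.6 against 67.6, 69.1 and 56.5, also without overlap. Rpl22l1 (26.5 and 27.6 against 33.3, 31.8 and 30.0) and Rpl7l1 (205 and 229 against 265, 242 and 232) were separate by less, at log2 fold changes of 0.22 and 0.18.

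Ribosomal proteins have many processed pseudogenes, which are copies inserted from spliced mRNA. For each gene the share of coding 50-base windows found in no other annotated gene was computed. The median share was 9.71% over 75 members and 100% over 10544 other listed genes. No window was unique in 26 members, and 74 members shared at least 1 with another annotated gene (median 9 genes, at most 123). The level per kilobase of exons ran from 0.940 (Rpl30) to 552 (Rpl4), 587-fold. Members with a unique share under 10% (39 genes) had a median of 5.45 normalized CPM per kilobase, those from 10% to 50% (25 genes) 18.2, and those from 50% (11 genes) 151. The Spearman correlation across the 75 members was 0.63. Genes are not independent replicates, and members share their pseudogene families and libraries. Across other listed genes the correlation was -0.006. With a median share of 100% the share varies little among those genes, so this value is no contrast to the members. How reads with several matches were treated could not be learned from the labels, and the part of this in the levels was not tested.

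**Figure D4:**
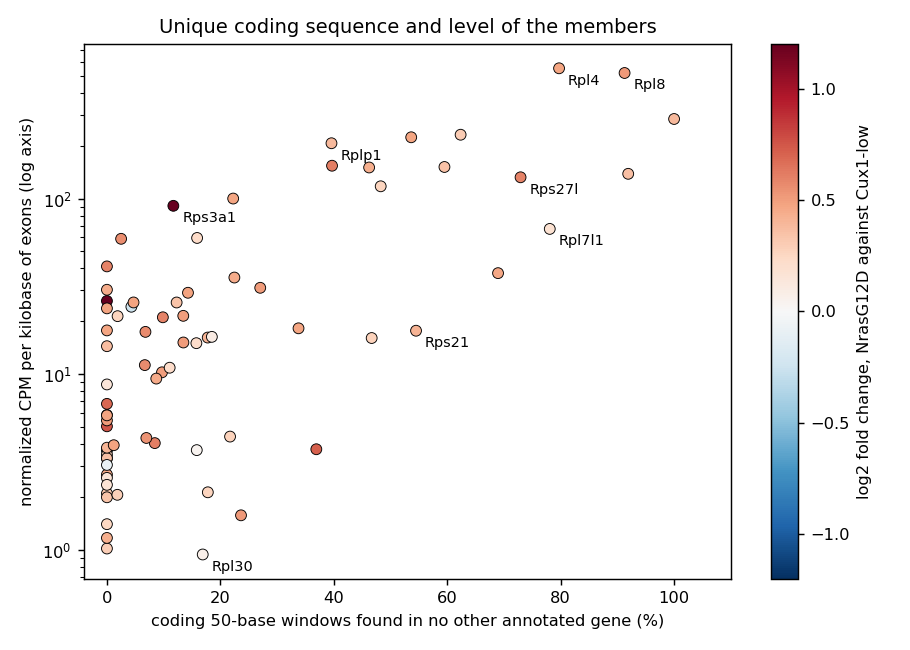
Level of 75 members (normalized CPM per kilobase of exons, mean of the 5 libraries, log axis) against the share of their coding 50-base windows found in no other annotated gene (%), coloured by log2 fold change. Levels rise from left to right while the colours are mixed along the axis.

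The difference between groups did not follow the unique share. Its Spearman correlation with log2 fold change was 0.03 across the same members, and the medians of the 3 classes were 0.45, 0.41 and 0.42 in log2. Of the 11 members with at least 50% unique windows, all 11 had separate and higher groups (26.5% of all genes). Without library 3, 10 were called higher (18% of all genes), among them Rpl4, Rps3 and Rpl8 (556 and 559 against 841, 836 and 733). Rps3a1 had 11.7% unique windows and shared others with 10 annotated genes, none of them listed. Rpl29 had none and shared windows with 82 genes. Over the whole transcript 52.14% of the windows of Rpl29 are unique, and the origin of its coding reads is uncertain. No unique share was computed for Rps4l. Its parent Rps4x shared coding windows with 11 annotated genes, none of them listed, so the listed Rps4l was not among them. The row Rpl14-ps1, left out by the rule, shares 77.74% of the coding windows of Rpl14, and read 229 and 226 against 324, 323 and 294. Rpl14 read 133 and 133 against 192, 194 and 173, so both rows had separate groups.

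**Figure D5:**
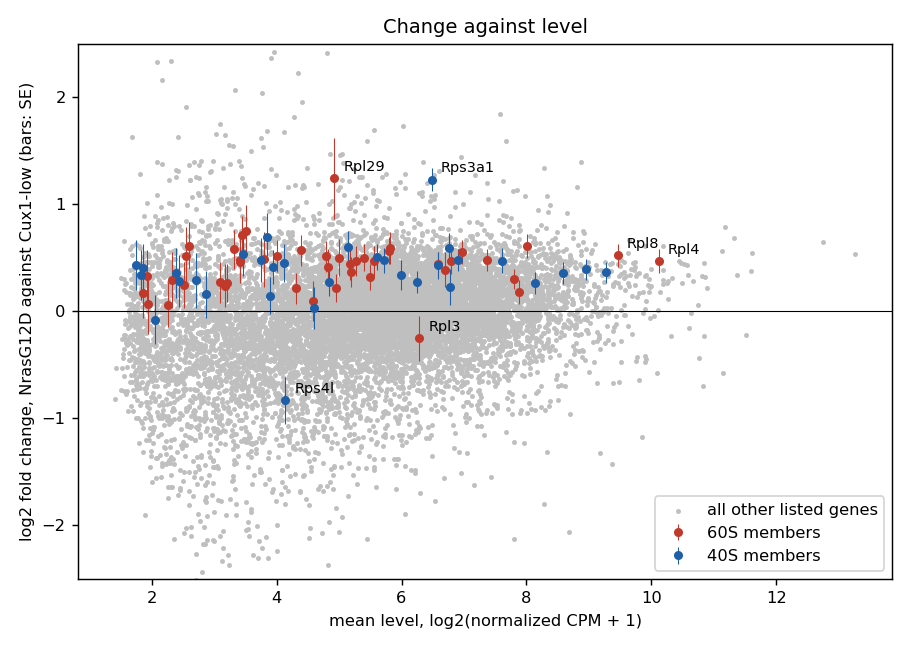
Log2 fold change (NrasG12D against Cux1-low, bars are SE) against mean level in log2(normalized CPM + 1) for 60S members (red), 40S members (blue) and other listed genes (grey). Members lie mostly between 0 and 0.8 at all levels, with Rps3a1 and Rpl29 above and Rpl3 and Rps4l below; 17 genes beyond 2.5 on the vertical axis are not drawn.

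Other genes of the translation machinery were followed by lists. Over all genes, 26.5% had groups separate and higher and 27% separate and lower. The 3 ribosomal proteins outside the symbol rule were positive with separate groups (median 0.50): Gnb2l1, the 40S scaffold RACK1, read 623 and 617 against 969, 943 and 808. All 17 other mRNAs known for a terminal oligopyrimidine tract were positive (median 0.33) and 16 had separate groups. Among them, Npm1 read 139 and 128 against 195, 194 and 183. Of 20 listed chaperones and late assembly factors 16 were positive (median 0.22), and 9 had groups separate and higher. Bysl, a factor of 40S maturation, read 67.0 and 82.1 against 121, 117 and 96.5. Of 14 listed collision and ubiquitin factors 10 were positive (median 0.12), 6 separate and higher and 3 separate and lower, Rnf14 at 144 and 148 against 111, 132 and 114 among the latter.

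Regulators of ribosomal protein synthesis had no common direction, with 10 of 15 positive (median 0.16). Mycn, a MYC family transcription factor, read 121 and 112 in Cux1-low against 31.0, 29.2 and 75.3, below in every NrasG12D library (log2 fold change -1.48, SE 0.38, limma adjusted p = 0.0792, and 0.0008 without library 3). Myc itself overlapped, at 653 and 755 against 659, 533 and 565. Eif4ebp1, the translational brake that mTOR phosphorylates, read 108 and 123 against 181, 202 and 142, above both in every library. Over the last 5 lists limma called no gene with all 5 libraries; at an unadjusted p under 0.05 there were 1 gene outside the symbol rule, 11 tract genes, 6 assembly factors, 4 regulators and 4 collision factors, against 31.4% of all genes. In the same order, the authors' deposited table calls 1, 6, 3, 3 and 2 of them, against 16.1% of all genes. Mitochondrial ribosomal proteins, which serve another ribosome, were positive in 76 of 76 listed genes (median 0.36). Of these, 67 were separate and higher (26.5% of all genes) and 53 were called higher without library 3 (18% of all genes). A positive sign in most genes was therefore not particular to the cytosolic ribosome.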

How the data were processed

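RNA-seq had been made from polyA RNA (Trizol, TruSeq v2 per the labels' protocols) of 2 Cux1-low and 3 NrasG12D HSPC samples. The submitters' processing notes name TopHat, HTSeq, edgeR and the builds hg19 and mm10, while versions, roles and strand use are not given in the sources used here. The deposited table holds 1 signal value per library, headed CPM per the file headers and called normalized CPM here because its columns sum to 971746 to 1026780. It also holds the authors' own test, with log2 columns (fold change and mean CPM), a score from a likelihood ratio, and deposited p-value columns before and after adjustment. Every listed gene is above 1 in at least 3 libraries, so genes above 1 only in Cux1-low cannot be listed.

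The values are headed CPM, a normalized unit, so a count test was not chosen as the main test. Values were whole multiples of 1 inferred read for 99.59% to 99.74% of genes (tolerance 0.02 of a read). Too few were low for the unit check to accept recovered reads, and no count test was run. The test was limma with a trended variance (limma 3.58.1, R 4.3.3) on log2(normalized CPM + 1), 3 against 2 libraries without a block, with a filter of at least 1 in 2 libraries (0 genes removed), adjusted over all 11352 genes, threshold 0.05. It was tested on simulated data, in which changed genes differed by more than the median member and no library stood apart. How it performs on changes of the members' size, or with a library like NrasG12D library 3, was not tested. Fold changes on this scale understate the change of low genes. The groups are called separate where no value of one lies within the other. Named genes were the 8 highest and 6 lowest members by log2 fold change, the P stalk, 5S and extra copy genes, called members, and up to 3 genes of smallest p per other list; others are marked or given as examples of levels. The counts include 2 members whose own values are not reported here. The members and lists were chosen with earlier results of these data known. Sequence windows (50 bases, both strands) and coordinates come from GENCODE M21 transcripts on mm10, and levels per kilobase use the union of annotated exons. Python 3.11.15 with pandas 2.3.3 and scipy 1.17.1 was used. Alternatives covered pseudocount, filter, scaling, limma settings, a replicate block and leaving out each library.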

Additional observations from a re-analysis of the deposited data

How the results depend on the processing

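With 2 and 3 libraries, the counts of calls and the sizes of several single genes (Rpl10, Rpl3, Rpl5 and Rpl7l1 among them) depended on 1 library, while the median over members moved less. Leaving out each library in turn, 3 to 4243 genes of all were called, 0 to 46 members were called, the median over members ran from 0.36 to 0.50, and 71 to 74 members were positive; the highest counts of calls came without NrasG12D library 3. Without 1 Cux1-low library, the other is assumed to vary like the NrasG12D libraries. The labels number the libraries of both groups but do not say that a number pairs them, and the deviations of same-numbered libraries correlated at -0.192 and -0.004. With the replicate number as a replicate block, which cannot use library 3, 4163 genes and 43 members (41 higher and 2 lower) were called. Rescaling the columns to a common sum called 213 genes in place of 128, and the cause was not tested. The median over members was then 0.368 in place of 0.431, with 73 of 77 positive, and that of all genes was -0.065 in place of -0.003. No scaling moved the median of all genes by more than 0.1. Per kilobase of the longest transcript the median level of members was 23.4 in place of 16.2. The direction turned for Rps27 (0.064 without Cux1-low library 1, range -0.218 to 0.064 over left-out libraries), Rps15a (-0.032 with columns rescaled to a common sum, -0.208 and -0.056 without Cux1-low library 1 or NrasG12D library 2, range -0.208 to 0.267), Rpl24 (-0.001 without NrasG12D library 1, range -0.001 to 0.124) and Rpl30 (-0.143 without NrasG12D library 1, range -0.143 to 0.197). Of 612 values for 44 named genes under alternatives, 537 kept direction and side of the threshold, 66 newly passed it (33 with the block and 33 without NrasG12D library 3), 3 no longer passed it, all for Rps3a1 without 1 library, and 6 reversed. For the rank correlation of unique share and level, alternatives chosen after seeing the data gave 0.60 (coding 75-base windows), 0.38 (windows of whole transcripts, 50 bases) and 0.44 (75 bases). Depth limits the 16 members with fewer than 100 inferred reads in a library.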

Other observations

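Of the 77 members, 29 carry an annotated small nucleolar RNA within their span on the same strand, a known arrangement in which the introns of ribosomal protein genes release guide RNAs for rRNA modification. Rpl4 holds 5 and Rpl13a holds 4. PolyA libraries do not measure these RNAs themselves. The members lie on 19 chromosomes, with 13 on chromosome 7. Of 10 annotated members that were not analysed here, 6 have no unique coding window.

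Outside the members, 13 listed genes share a coding window with a member. Of these 5 had a positive log2 fold change (median -0.05). Separate and higher groups were seen in 4 (26.5% of all genes) and separate and lower ones in 2, Dennd1b and Rhbdd2 (27%). Without library 3, limma called Dennd1b and Rhbdd2 (adjusted p = 0.0315 and 0.0108). Among the higher ones it then called Rpl14-ps1, Med21 and Gm15421 (adjusted p = 0.0063, 0.0384 and 0.0438) but not Uimc1. Of all genes, 37.4% were called without library 3. None of the 13 was called by limma over all genes with 5 libraries (0.255% of all genes were called higher and 0.872% lower). An unadjusted p under 0.05 was seen in 2 (31.4% of all genes), and 1 is called in the authors' deposited table (16.1% of all genes). Gm15421, which shares 81.39% of the coding windows of Rpl22l1, read 11.1 and 11.2 in Cux1-low against 16.7, 15.6 and 12.9. Uimc1, which shares 84.99% of those of Rpl29, read 62.6 and 65.2 against 73.3, 70.4 and 72.4, and did not show the low library 3 value of Rpl29.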
